A study of Mus musculus with 16 samples.

Results

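B1b cells sorted from the peritoneal cavity of mice labelled cre were compared with those of mice labelled wt, across all expressed genes. The libraries were taken by their cell type and genotype labels, which gave 3 wild-type and 3 cre libraries, 6 of the 16 in the series, and 11732 genes had enough counts to test. The other 10 libraries are whole aortas, 5 of each genotype. All mice of both genotypes were ApoE-/-, a strain that lacks apolipoprotein E and is prone to atherosclerosis. The series describes the cre mice as deficient in CD40 in B cells alone, and its title concerns the part of CD40 in keeping B1b cells. The labels name neither the promoter that drives Cre nor the altered part of Cd40, and give no age or sex. They do not say that each library came from a separate mouse, so the p-values below measure the spread between these samples.

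B1b cells are a subset of B-1 cells, self-renewing B cells of the body cavities that make natural and T cell-independent antibodies, largely IgM. CD40 is a receptor of the TNF receptor family that B cells carry. Its ligand on activated T cells triggers TRAF adaptors and NF-kB, and through them the activation, survival and antigen presentation of B cells. The comparison asked which other genes and programs differed between the genotypes in these sorted cells.

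With a single transcript taken for each gene, the 6 libraries held between 6815829 and 9911226 counts and detected between 15168 and 17146 genes. Libraries of 1 genotype correlated across genes at Pearson's r from 0.973 to 0.985. Pairs across genotypes ran from 0.960 to 0.982, so the ranges overlapped. Wild-type replicate 1 stood apart in haemoglobin transcripts, with 1133 CPM (read counts scaled for library depth) against 1.11 to 24.5 CPM in the other 5 libraries. Cre replicate 3 stood apart in mitosis genes, with a mean log2 CPM of 3.44 over 32 genes against 2.12 to 2.65 in the others. The Y-linked genes Ddx3y, Eif2s3y, Kdm5d and Uty had 0 counts in every library, and Xist was expressed in all 6. Ms4a1, the gene of the B cell surface protein CD20, stood between 1744 and 2267 CPM and the B-1 cell gene Zbtb32 between 281.7 and 383.4 CPM.

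A small set of genes differed between the genotypes. Of the 11732 genes tested, 57 rose in cre cells and 26 fell, which is 0.486% and 0.222% of genes (edgeR quasi-likelihood F test, adjusted p under 0.05 over all genes). The 3 wild-type and 3 cre values did not overlap in any of these 83 genes, against 18.4% of all genes. The test itself favours genes with separated groups, so this is not separate support for them. The median change was 0.60 on the log2 scale among rising genes and 0.64 among falling genes, and 9 rising and 4 falling genes changed by at least 1 on that scale. The fit was repeated 6 times, each time without 1 library, and these repeats are called leave-one-out fits below. All 83 genes kept their direction in each of them, but in most fewer genes passed. They called 25 rising and 10 falling genes without wild-type replicate 1, 34 and 32 without wild-type replicate 2, and 80 and 21 without wild-type replicate 3. They called 21 and 15 without cre replicate 1, 33 and 9 without cre replicate 2, and 67 and 36 without cre replicate 3. In all, 15 rising and 6 falling genes passed in every one of those fits.

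**Figure D1:**
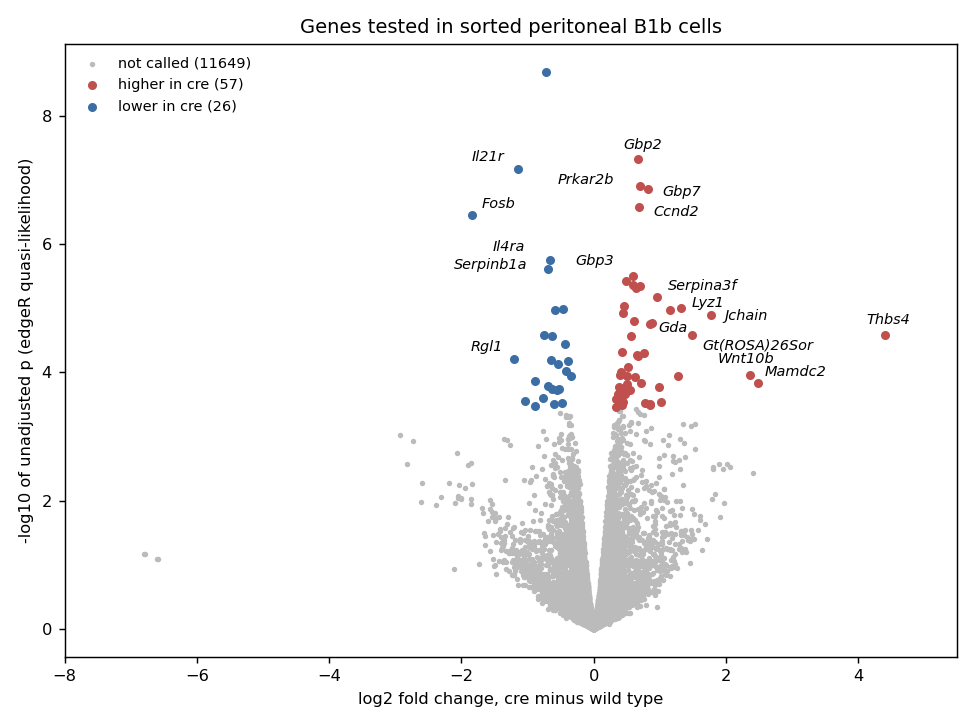
Each point is 1 of the 11732 genes, with the log2 fold change of cre over wild type on the horizontal axis and -log10 of the unadjusted p on the vertical axis. The 57 genes that rose are red and the 26 that fell are blue, and most of them lie within 1 log2 unit of 0.

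Cd40 itself (chromosome 2, 165055614 to 165071654 in mm10) was not lower beyond the spread between replicates. It read 39.4, 34.0 and 36.8 CPM in the wild-type libraries and 30.0, 30.2 and 38.2 CPM in the cre libraries. Cre replicate 3 lay within the wild-type range. The log2 fold change was -0.16 with a 95% interval from -0.45 to 0.13 (adjusted p = 0.679). Which exons the cre mice lack is not known here and the counts are per transcript, so they do not check the genotype. The genes of the sort markers B220 and CD5 did not pass, Ptprc at 0.07 and Cd5 at -0.33 on the log2 scale. Apoe, the gene inactivated in all mice, ran from 7.19 to 9.59 CPM across the wild-type libraries and from 3.37 to 5.05 CPM across the cre libraries (adjusted p = 0.153).

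Genes switched on by acute stimulation held more falling members than any other list described here. Of 27 tested immediate early and stimulus-induced genes, 6 fell and 0 rose. Over all genes 0.222% fell and 0.486% rose, and these shares also belong beside the list counts below. In this list 22 genes had a negative log2 fold change, and the median was -0.26 against 0.00 over all genes. In 11 the cre values lay wholly below wild type and in 0 wholly above, against 8.66% and 9.71% of all genes. The lists were chosen with earlier results of these data known. Fosb, a subunit of the AP-1 transcription factor, read 16.2, 16.4 and 14.3 CPM in wild type and 5.49, 3.52 and 4.04 CPM in cre. Every cre value was below 6 CPM and every wild-type value above 14 CPM. Fosb fell by 1.84 on the log2 scale (SE 0.25, 95% interval from -2.35 to -1.32, adjusted p = 0.000588), the largest fall among all 26 genes. Egr3, a zinc finger factor induced by antigen receptor signals, read 36.9, 22.7 and 36.9 CPM in wild type and 20.5, 13.0 and 18.4 CPM in cre. Its groups came close, with wild-type replicate 2 just above cre replicate 1, and it fell by 0.89 (adjusted p = 0.0482). Gadd45b, a stress and growth arrest gene, read 22.8, 20.7 and 26.7 CPM against 14.9, 13.8 and 12.6 CPM and fell by 0.77. Ppp1r15a, which lets translation restart after stress, fell by 0.69.

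The surface proteins in that group are CD69 and CD83, both used as marks of activated lymphocytes. Cd69 read 133.0, 133.5 and 123.6 CPM in wild type and 98.3, 66.1 and 66.7 CPM in cre. Cre replicate 1 was the nearest to wild type and still lay below all 3 wild-type libraries. Cd69 fell by 0.75 (SE 0.13, adjusted p = 0.0108) and Cd83 by 0.65 (SE 0.12, adjusted p = 0.0206). The other members did not pass. Nr4a1, a nuclear receptor induced by antigen receptor signals, stood at -0.84 (adjusted p = 0.0925), Fos at -0.66, Egr1 at -0.34 and Myc at 0.04, and Jun stood in the other direction at 0.37. Fosb passed in all 6 leave-one-out fits, Cd69 in 4 and Cd83 in 3, while Egr3 passed in 1 and Gadd45b and Ppp1r15a in 0 (adjusted p up to 0.210, 0.141 and 0.158).

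**Figure D2:**
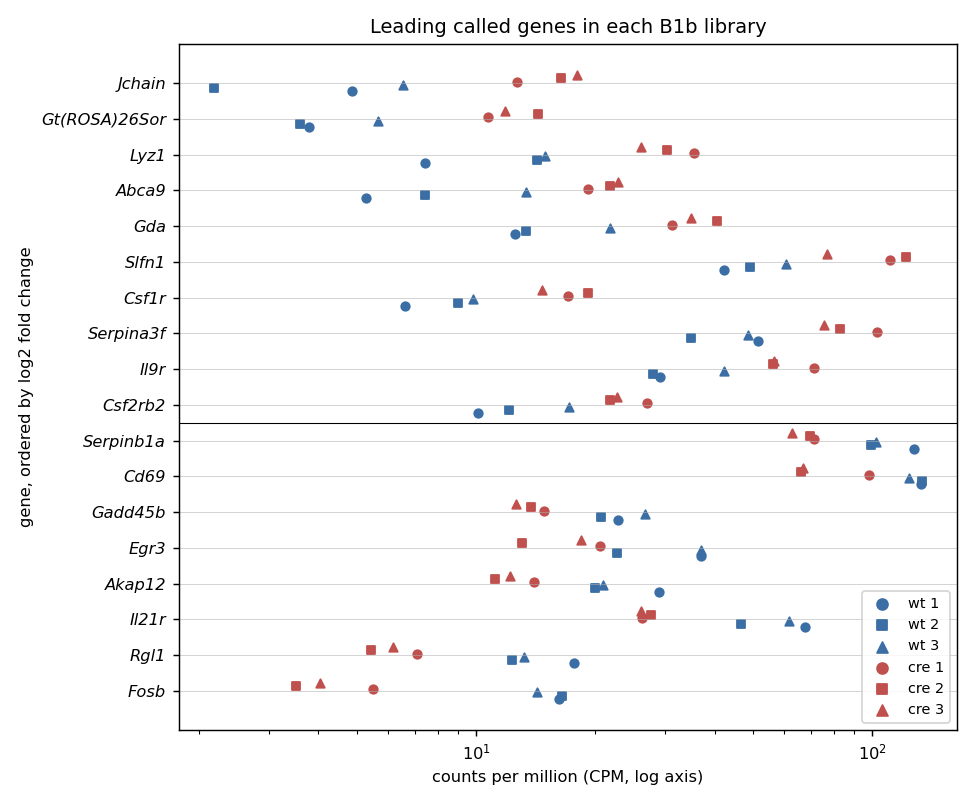
CPM of the leading genes that passed the test in each of the 6 libraries, on a log axis, with rising genes above the line and falling genes below it. Only genes whose 3 blue wild-type points and 3 red cre points do not overlap were eligible, and Egr3 has the narrowest gap among the falling genes.

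Cytokine receptor genes moved in both directions. Among 30 tested, 2 fell and 3 rose, and the median was 0.05. The falling pair are neighbours on chromosome 7 and encode receptors that share the common gamma chain. Il21r, the receptor of interleukin-21 (125603252 to 125634397), read 67.8, 46.6 and 61.7 CPM in wild type and 26.23, 27.70 and 26.04 CPM in cre. The cre libraries were nearly level, and the lowest wild-type library lay well above them. Il21r fell by 1.14 (SE 0.14, adjusted p = 0.000262). Il4ra, the interleukin-4 receptor alpha chain (125552271 to 125579474), read 309.4, 241.0 and 260.7 CPM against 190.6, 159.8 and 164.2 CPM and fell by 0.66 (SE 0.10, adjusted p = 0.00261). Both passed in all 6 leave-one-out fits, and the common gamma chain gene Il2rg stood at -0.04.

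The rising receptors were Il9r, Csf2rb2 and Csf1r. Il9r, the interleukin-9 receptor, read 29.2, 28.0 and 42.4 CPM in wild type and 71.2, 56.3 and 56.5 CPM in cre. All 3 cre libraries were higher, and Il9r rose by 0.88 (SE 0.15, adjusted p = 0.00821). Csf2rb2, a beta subunit of the mouse interleukin-3 receptor, read 10.1, 12.1 and 17.2 CPM against 27.1, 21.8 and 22.7 CPM and rose by 0.85 (adjusted p = 0.0468). It is a close copy of its neighbour Csf2rb, which stood at 0.30 (adjusted p = 0.0797), so reads may be split between them. Il2ra, the interleukin-2 receptor alpha chain, read 18.1, 27.1 and 32.5 CPM against 46.7, 73.0 and 44.7 CPM, a log2 fold change of 1.07 that did not pass (adjusted p = 0.110). Of 21 JAK, STAT and SOCS genes, which carry signals from these receptors, 0 rose and 0 fell, and Socs3 was nearest at 0.43 (adjusted p = 0.129). Il9r passed in 4 leave-one-out fits and Csf2rb2 in 1.

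Among the genes that rose were 3 guanylate-binding proteins. These are interferon-inducible GTPases that act against microbes inside cells. Of 16 tested interferon gamma-inducible GTPase genes, 3 rose and 0 fell, with a median of 0.13. The 3 were Gbp2, Gbp3 and Gbp7, which lie close together on chromosome 3. Their promoters are shown because these neighbours moved together, as the 250 bases before each start in RefSeq (GRCm38.p6, plus strand). The windows are chr3:142620413-142620662 for Gbp2, chr3:142559794-142560043 for Gbp3 and chr3:142530086-142530335 for Gbp7. Capitals mark matches on either strand to the interferon-stimulated response element core GAAANNGAA, the gamma-activated site TTCNNNGAA and the AP-1 site TGAGTCA or TGACTCA.
Gbp2: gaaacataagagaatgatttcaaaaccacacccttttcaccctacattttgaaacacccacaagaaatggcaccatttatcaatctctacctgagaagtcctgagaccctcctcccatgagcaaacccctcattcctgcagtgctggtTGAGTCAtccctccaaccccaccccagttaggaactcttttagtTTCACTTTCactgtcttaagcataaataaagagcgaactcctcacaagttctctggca
Gbp3: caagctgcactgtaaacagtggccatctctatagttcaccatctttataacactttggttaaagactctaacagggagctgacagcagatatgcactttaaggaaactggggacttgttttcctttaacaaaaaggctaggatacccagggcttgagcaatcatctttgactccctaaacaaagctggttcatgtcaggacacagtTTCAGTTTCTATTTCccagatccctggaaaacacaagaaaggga
Gbp7: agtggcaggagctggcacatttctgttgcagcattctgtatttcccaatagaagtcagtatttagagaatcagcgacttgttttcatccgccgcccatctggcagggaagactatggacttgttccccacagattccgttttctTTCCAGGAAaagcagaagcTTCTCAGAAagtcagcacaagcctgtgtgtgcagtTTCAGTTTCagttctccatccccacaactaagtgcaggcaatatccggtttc
Each window holds the response element core close to the start, with its first base at -58 in Gbp2, at -44 and -38 in Gbp3, where both matches overlap, and at -52 in Gbp7. Gbp7 also holds gamma-activated sites at -106 and -87, and Gbp2 an AP-1 site at -102. RefSeq lists a further Gbp3 start whose window holds no match.

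Gbp2 read 192.2, 198.7 and 195.5 CPM in wild type and 288.2, 309.1 and 333.1 CPM in cre. The wild-type libraries differed by little and all 3 cre libraries were clearly higher. Gbp2 rose by 0.67 (SE 0.08, adjusted p = 0.000262). Gbp7 read 218.7, 237.3 and 258.2 CPM against 440.5, 473.4 and 353.5 CPM and rose by 0.83 (SE 0.10, adjusted p = 0.000327). Gbp3 read 182.9, 235.3 and 239.9 CPM against 323.8, 327.9 and 344.0 CPM and rose by 0.60 (SE 0.09, adjusted p = 0.00367). All 3 passed in each leave-one-out fit. Genes of this family are similar in sequence, so reads may be shared among them.

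The other 13 tested GTPase genes did not pass. Gbp5, a family member beside them on chromosome 3, read 62.7, 75.5 and 88.3 CPM in wild type and 93.6, 88.5 and 83.0 CPM in cre, at 0.22 with overlapping groups. On chromosome 5, Gbp4 stood at 0.00 with a 95% interval from -0.27 to 0.27, and Gbp9 at -0.08 with an interval from -0.29 to 0.13. The immunity-related GTPases Irgm1, Irgm2 and Igtp stood at -0.21, 0.01 and -0.13. Of 35 tested genes on a list of interferon-stimulated genes, 0 rose and 0 fell, with a median of 0.05, and Trim30a came nearest at 0.38 (adjusted p = 0.0654).

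**Figure D3:**
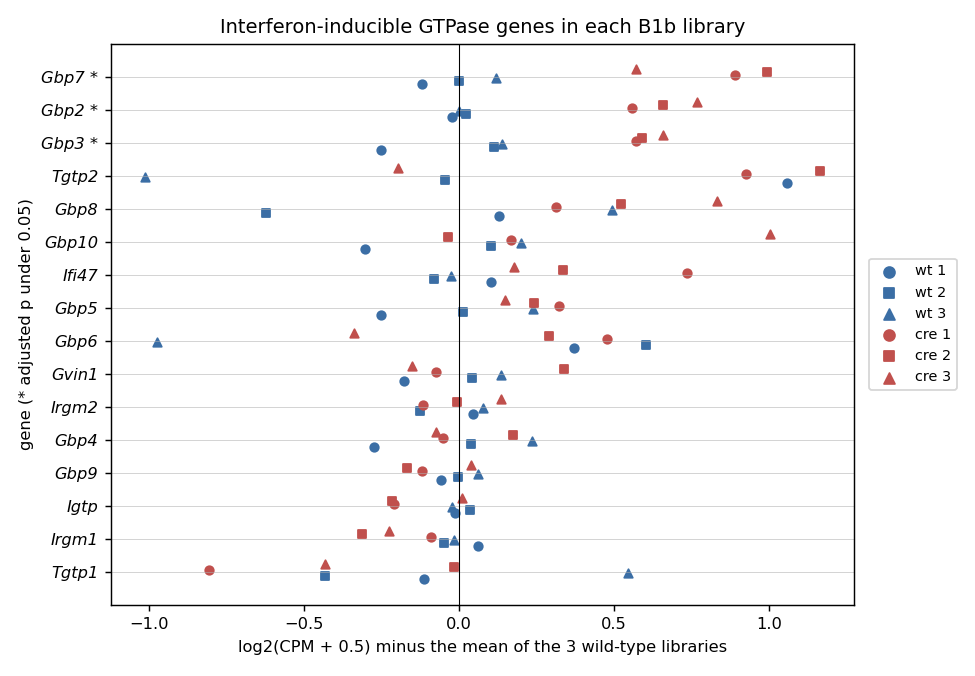
The horizontal axis gives log2(CPM + 0.5) of each interferon-inducible GTPase gene minus the mean of the 3 wild-type libraries, 1 point per library. For Gbp2, Gbp3 and Gbp7, marked with an asterisk, all 3 red cre points lie to the right of the wild-type points, while most other genes have mixed colours around 0.

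Across the genes that changed, the same motif search gave the following shares. The response element core was in 21.7% of 46 rising and 11.1% of 18 falling genes with a promoter in the table, against 7.67% of 9400 tested genes and 8.18% of all 27025 genes. The gamma-activated site was in 17.4% of rising and 0% of falling genes, against 7.17% of tested and 8.13% of all genes. The AP-1 site was in 4.35% of rising and 0% of falling genes, against 3.67% of tested and 5.16% of all genes. The cyclic AMP element TGACGTCA was in 0% of rising and 5.56% of falling genes, against 3.13% of tested and 1.77% of all genes. That 1 falling gene was Ppp1r15a, with the element at -12. The 2 interferon motifs were added after the values were seen, the matches can overlap, and the groups are small. The sets were not matched for base composition. Median GC content of transcripts was 43.0% among rising, 54.1% among falling and 50.2% among all genes with a transcript sequence. The part of base composition in these shares was not tested. A gene was counted if any of its listed starts held the motif, so genes with several starts had more chances. The rising genes with an interferon motif include neighbours of the same family, Gbp2, Gbp3 and Gbp7 as well as Serpina3f and Serpina3g.

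Leukocyte serpins, which are inhibitors of proteases, went both ways. Of 8 tested, 2 rose, 1 fell and 5 did not pass, with a median of 0.01. Serpina3f read 51.3, 34.8 and 48.6 CPM in wild type and 102.6, 82.7 and 75.4 CPM in cre. Its neighbour Serpina3g on chromosome 12 read 100.5, 83.9 and 109.5 CPM against 166.0, 146.9 and 143.1 CPM. Both were higher in every cre library, by 0.95 (SE 0.14, adjusted p = 0.00527) and 0.63 (SE 0.10, adjusted p = 0.00411). The mouse Serpina3 genes are near copies of one another, so reads may be split between them. Serpinb1a, an inhibitor of neutrophil proteases on chromosome 13, read 127.6, 99.2 and 102.4 CPM against 71.2, 69.6 and 62.8 CPM. It was lower in every cre library and fell by 0.69 (SE 0.11, adjusted p = 0.00320). The 3 genes passed in each leave-one-out fit. Slfn1, a Schlafen gene tied to lymphocyte quiescence, read 42.3, 49.2 and 60.5 CPM against 111.1, 121.7 and 76.7 CPM. It rose by 1.02 (adjusted p = 0.0468) as the only one of 7 tested Schlafen genes to pass, with cre replicate 3 nearest to wild type, and passed in 2 leave-one-out fits.

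Protein kinase A carries signals of cyclic AMP, and among its 28 tested subunit, anchor and cyclic nucleotide genes 1 rose and 1 fell. Prkar2b, a regulatory subunit of the kinase, read 340.9, 365.9 and 417.5 CPM in wild type and 615.1, 666.7 and 552.8 CPM in cre. Every cre library was higher, and Prkar2b rose by 0.71 (SE 0.09, adjusted p = 0.000327). Akap12, a scaffold that anchors the kinase, read 28.9, 19.9 and 20.9 CPM against 14.0, 11.1 and 12.2 CPM and fell by 0.89 (SE 0.19, adjusted p = 0.0324). The remaining genes did not pass, among them the other type II regulatory subunit gene, Prkar2a, at 0.08 and the catalytic subunit genes Prkaca and Prkacb at -0.07 and 0.14. Prkar2b passed in all 6 leave-one-out fits and Akap12 in 2.

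Regulators of small GTPases and of actin gave 1 rise and 1 fall among 32 tested. Rgl1, an exchange factor for Ral GTPases, read 17.7, 12.3 and 13.2 CPM in wild type and 7.08, 5.42 and 6.16 CPM in cre. It fell by 1.20 (SE 0.24, adjusted p = 0.0200) with no overlap between groups. Raph1, the actin regulator lamellipodin, read 16.9, 22.9 and 19.3 CPM against 37.2, 33.7 and 35.3 CPM and rose by 0.85 (SE 0.15, adjusted p = 0.00823). Further called genes of this kind outside the list were grouped with it after the values were seen. Ptk2b, the adhesion kinase PYK2, fell by 0.44 and Tagap, a GTPase-activating protein of lymphocytes, by 0.54. Arhgap5 and Capza1 rose by 0.55 and 0.51. Raph1 and Ptk2b passed in 5 leave-one-out fits, Rgl1 and Tagap in 3.

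On the lists of cell cycle entry, DNA replication and mitosis genes, Ccnd2 was the one to pass. It encodes cyclin D2, which drives B cells from G1 into division and is known for its part in B-1 cell development. It read 424.1, 451.8 and 369.2 CPM in wild type and 611.1, 640.2 and 740.2 CPM in cre. The highest wild-type value lay well below the lowest cre value, and Ccnd2 rose by 0.68 (SE 0.09, adjusted p = 0.000523). Of 25 cyclins and cell cycle entry genes, 1 rose and 0 fell, and Ccnd1 and Rb1 stood at 0.69 and 0.35 without passing. Of 30 DNA replication genes 0 passed, with a median of 0.12 that became -0.01 without cre replicate 3. Of 32 mitosis genes 0 passed, although 28 had a positive log2 fold change and the median was 0.71. Mki67, a mark of cycling cells, read 28.36, 21.97 and 32.01 CPM in wild type and 50.99, 49.10 and 113.1 CPM in cre. Cre replicate 3 was far above the other libraries, and without it the median of the mitosis genes was 0.23. Ccnd2 passed in all 6 leave-one-out fits, that one included.

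Jchain, the joining chain of polymeric IgM and IgA, was the strongest riser among the genes of more than a few CPM. It read 4.86, 2.18 and 6.53 CPM in wild type and 12.69, 16.42 and 17.96 CPM in cre. The lowest cre library lay well above the highest wild-type library, and Jchain rose by 1.78 (SE 0.30, adjusted p = 0.00677). The other 28 tested plasma cell and secretion genes did not pass, and the median of the 29 was 0.00. Herpud1, a gene of the endoplasmic reticulum stress response, stood at -0.31 and the B cell coactivator gene Pou2af1 at 0.21. Jchain passed in all 6 leave-one-out fits.

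Antigen presentation by class II molecules included 2 genes that fell. H2-Eb1, the beta chain of the class II molecule I-E, read 2455, 2286 and 2272 CPM in wild type and 1877, 1779 and 1880 CPM in cre and fell by 0.34 (SE 0.07, adjusted p = 0.0287). Lgmn, a lysosomal protease that processes antigen, fell by 0.53 (adjusted p = 0.0357). Of 20 tested class II genes 2 fell and 0 rose. In 9 the cre values lay wholly below wild type and in 2 wholly above, against 8.66% and 9.71% of all genes. H2-Aa, H2-Ab1 and Cd74 stood at -0.23, -0.23 and -0.17 without passing, and the median was -0.16. Ctss and Cd80 stood in the other direction at 0.19 and 0.29. The class I and proteasome list had the same median of -0.16, with 9 of 22 wholly below and 3 wholly above. Of these 22 genes 0 passed, Tap1 being nearest at -0.30 (adjusted p = 0.129). With the offset for GC content described below, the medians were -0.11 for class II and -0.08 for class I. H2-Eb1 passed in 2 leave-one-out fits and Lgmn in 1. Class I genes of the H2-Q and H2-T groups share sequence, so their counts are uncertain.

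In the lists closest to CD40 few genes passed. Of 22 TNF receptor and TRAF genes, 1 fell, Traf5, an adaptor of CD40 and related receptors, which read 85.6, 63.7 and 76.3 CPM in wild type and 55.9, 53.9 and 51.9 CPM in cre. Its log2 fold change was -0.48 (adjusted p = 0.0468) and it passed in 1 leave-one-out fit. Of 24 NF-kB subunits and regulators and of 30 B cell receptor signalling genes, 0 passed, with medians of -0.04 and -0.05. In B cell receptor signalling 8 genes lay wholly below wild type and 3 wholly above, against 8.66% and 9.71% of all genes. The TNF receptor and TRAF list had 5 wholly below and 1 wholly above, and the NF-kB list 3 and 1. Of the 30 B cell receptor signalling genes, 18 had a negative log2 fold change and 12 a positive one. Bank1, an adaptor of B cell receptor signalling, stood at 0.30 and Pik3ap1, which links that receptor to PI3 kinase, at -0.42 (adjusted p = 0.0691 and 0.0584). In 30 B cell identity genes 1 fell, which is not reported here, and the median was -0.08. Dtx1, a Notch target of marginal zone B cells, read 205.2, 161.2 and 149.2 CPM against 99.1, 117.4 and 117.8 CPM and fell by 0.62 (SE 0.11, adjusted p = 0.0108), the only one of 15 Notch and marginal zone genes to pass. Dtx1 passed in 5 leave-one-out fits.

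Metabolic genes gave a few single risers. Gda, the guanine deaminase that breaks down guanine, read 12.6, 13.4 and 21.8 CPM in wild type and 31.2, 40.5 and 34.9 CPM in cre. It rose by 1.15 (SE 0.19, adjusted p = 0.00637) as the one of 31 nucleotide metabolism genes to pass, and passed in all 6 leave-one-out fits. Among 23 lipid handling genes 2 rose, Abca9, a lipid transporter of the ABC family, by 1.27 (adjusted p = 0.0287) and Cd36, a scavenger receptor for oxidised lipids, by 0.71 (adjusted p = 0.0338). Abca9 read 5.27, 7.45 and 13.4 CPM against 19.1, 21.8 and 22.8 CPM, and Cd36 read 29.3, 32.9 and 46.3 CPM against 65.5, 60.8 and 52.6 CPM. In both genes wild-type replicate 3 was the nearest to cre, and they passed in 1 and 2 leave-one-out fits. Of 25 cholesterol synthesis, 24 glycolysis, 39 respiratory chain and 50 ribosomal protein genes, 0 passed, with medians of 0.06, -0.06, -0.05 and -0.10. In glycolysis 8 genes lay wholly below wild type and 2 wholly above, against 8.66% and 9.71% of all genes, with Aldoa at -0.36 (adjusted p = 0.0588). With the offset for GC content described below, the glycolysis median was -0.03. Ephx1, the microsomal epoxide hydrolase, read 159.9, 153.9 and 136.8 CPM against 101.7, 87.5 and 111.4 CPM, fell by 0.58 (adjusted p = 0.00637) and passed in all 6.

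Among survival genes Trp53inp1, a target of p53, rose by 0.40 and was the only one of 26 to pass, in 1 leave-one-out fit. Pim2, a survival kinase, read 43.9, 36.0 and 40.2 CPM against 63.1, 48.7 and 81.7 CPM and did not pass (adjusted p = 0.0568). Of the other genes that rose, P2ry10b, a receptor for lysophospholipids, rose by 0.60, Sh3bgrl2 by 0.70, Ppp1cb, a catalytic subunit of protein phosphatase 1, by 0.46, Ube2d3, a ubiquitin-conjugating enzyme, by 0.49, Selenot, a selenoprotein of the endoplasmic reticulum, by 0.44 and Tmed5, a cargo receptor of the secretory pathway, by 0.61. Tmed5 stood at -0.26 with its transcript of lowest count. These 6 passed in all 6 leave-one-out fits. With the offset for GC content described below Sh3bgrl2 passed at 0.65 and the other 5 did not, with P2ry10b, Ppp1cb and Ube2d3 at 0.30, Tmed5 at 0.29 and Selenot at 0.25. Selenop, another selenoprotein, rose by 0.56, Fut8, which adds the core fucose of N-glycans, by 0.51, H3f3a, a histone H3.3 gene, by 0.68 and Pik3r5, a regulatory subunit of PI3 kinase gamma, by 0.42. The noncoding transcript of the Rosa26 locus, Gt(ROSA)26Sor, read 3.78, 3.60 and 5.66 CPM in wild type and 10.7, 14.4 and 11.8 CPM in cre, a rise of 1.48 (adjusted p = 0.0108). With its transcript of lowest count it stood at 0.24 and did not pass, and it passed in 4 leave-one-out fits.

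A further group of rising genes works in protein turnover, protein acetylation and RNA or chromatin handling, a grouping made after the values were seen. Uba6, a ubiquitin-activating enzyme, rose by 0.42, Psmd14, a deubiquitinase of the proteasome lid, by 0.40, and Cops2, a subunit of the COP9 signalosome, by 0.41. Psmd14 read 122.0, 125.8 and 129.9 CPM in wild type and 152.1, 178.4 and 166.5 CPM in cre. Naa15 and Naa50, partners in N-terminal acetylation of proteins, rose by 0.36 and 0.42, the RNA-binding proteins Syncrip and Mbnl1 by 0.42 and 0.33, and the chromatin remodeller gene Chd1 by 0.38. With the offset for GC content described below none of these 8 passed, with adjusted p between 0.143 and 0.557. Chordc1, a partner of HSP90, rose by 0.42 as the only one of 17 heat shock and chaperone genes to pass. Col27a1, a fibrillar collagen, rose by 0.84, Zfp994, a zinc finger gene, by 0.76, Mzt1, a part of the spindle pole machinery, by 0.65, and Rrm2b, a ribonucleotide reductase subunit, by 0.43. The other rising genes were Gramd2, Sh3bgrl, Lrif1, Zdhhc21, Rp2, Hepacam2, Tmem123, Mtdh and Rpl14-ps1, at 0.33 to 0.78. The remaining falling genes were Tctn1 at -0.64, Bend5 at -0.60, Itprip at -0.55, Phf1, a Polycomb partner, at -0.43 and Chst3, a chondroitin sulfotransferase, at -0.39. With the same offset Col27a1, Gramd2 and Rpl14-ps1 passed. Chordc1, Zfp994, Mzt1, Rrm2b, Sh3bgrl, Lrif1, Zdhhc21, Rp2, Hepacam2, Tmem123 and Mtdh did not, nor did these remaining falling genes. Of the 56 rising genes with a name, 15 passed in 0 or 1 leave-one-out fits, and of 23 falling genes named here 7 did.

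Few reads lay behind 3 of the rising genes. Thbs4, a thrombospondin, had 0, 1 and 2 wild-type counts against 22, 23 and 26 cre counts. With depth taken into account the cre libraries held 23.1 times as many, with a 95% counting interval from 7.58 to 114.5. Mamdc2 had 8, 5 and 7 counts against 28, 27 and 65, a ratio of 5.85 (3.62 to 9.91). Wnt10b, a Wnt ligand, had 7, 7 and 9 counts against 33, 38 and 51, a ratio of 5.17 (3.29 to 8.46). In each of the 3 genes every cre library held more than every wild-type library. The intervals cover counting error only, and Thbs4, Mamdc2 and Wnt10b passed in 3, 0 and 1 leave-one-out fits.

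Marker genes of other cells of the peritoneum moved with genotype in part. Of 27 tested macrophage and monocyte genes, 2 rose, 22 had a positive log2 fold change and the median was 0.61. Lyz1, a lysozyme, read 7.43, 14.3 and 14.9 CPM in wild type and 35.5, 30.3 and 26.1 CPM in cre and rose by 1.32 (SE 0.22, adjusted p = 0.00637). Csf1r, through which macrophages receive their growth factor, read 6.62, 8.99 and 9.80 CPM against 17.1, 19.2 and 14.6 CPM and rose by 0.99 (adjusted p = 0.0357). Lyz2, a near copy of Lyz1 with which reads may be shared, stood at 57.4, 102.9 and 141.8 CPM against 187.4, 242.4 and 191.2 CPM. The list summed to 556.7, 735.6 and 903.1 CPM in wild type and 1094, 1220 and 1095 CPM in cre. In 10 genes the cre values lay wholly above wild type and in 1 wholly below, against 9.71% and 8.66% of all genes. Wild-type replicate 1 had the lowest sum, and without it the median was 0.26. Lyz1 and Csf1r passed in 5 and 2 leave-one-out fits. Adgre1, which encodes the macrophage protein F4/80, Cd68 and Mertk stood at -0.28, 0.22 and 0.00 without passing, and Cd14 stayed between 0.81 and 4.03 CPM. In bulk libraries more cells of a type and more RNA per cell cannot be told apart, and the part of these genes in the other rises was not tested.

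Markers of other cells were counted in the same way. The summed level of the 13 T cell genes in the table was 23.5 to 32.5 CPM, and 0 of the 9 natural killer and 0 of the 12 neutrophil genes had enough counts to test. Ly6g and Msln, marks of neutrophils and of mesothelium, had 0 counts in all 6 libraries. Dendritic cell genes summed to 198.6 to 250.8 CPM in wild type and 145.5 to 178.1 CPM in cre, mostly through Ccr7, and 0 of 7 passed. Of 20 B-1 cell genes 0 passed and the median was -0.01, with Cd9 at 0.40 and Spn, which encodes CD43, at -0.57. Of 14 genes higher in B-2 cells, the common B cells of spleen and lymph node, 1 fell, Il4ra, and the median was -0.22. In 6 of them the cre values lay wholly below wild type and in 2 wholly above, against 8.66% and 9.71% of all genes. Fcer2a, the gene of the B-2 cell protein CD23, read 102.5, 65.4 and 118.5 CPM against 56.5, 43.5 and 49.9 CPM without passing (adjusted p = 0.129). The part of B-2 cells in the fall of Il4ra was not tested.

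**Figure D4:**
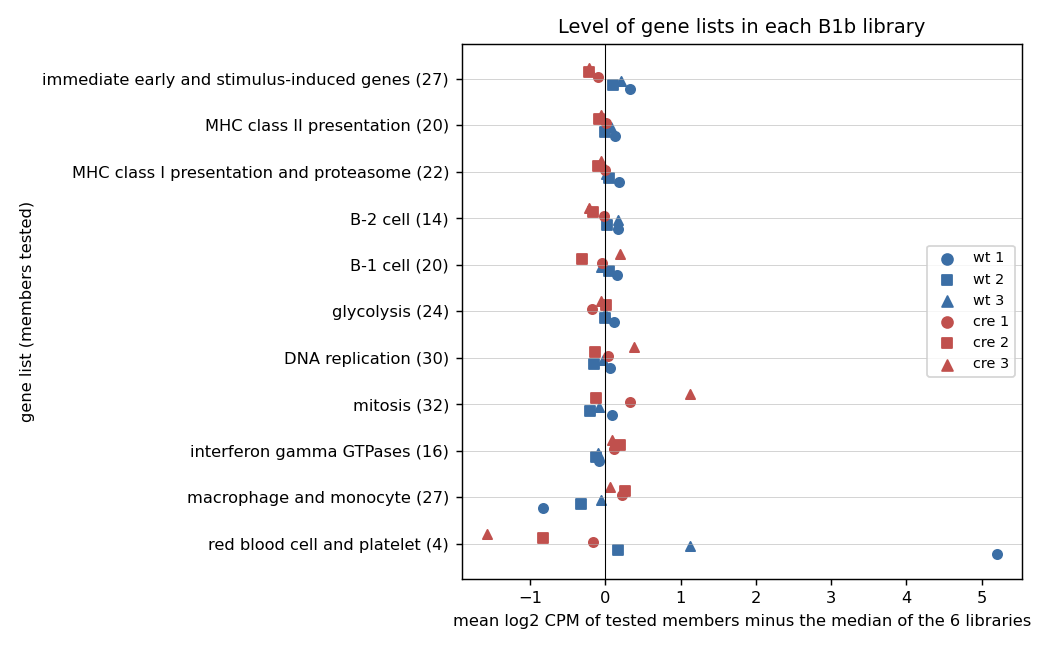
Mean log2 CPM of the tested members of 11 gene lists in each library, minus the median of the 6 libraries, with the number of members in brackets. Immediate early genes are lower in all 3 cre libraries and macrophage genes higher, while the mitosis list is high in cre replicate 3 and the red blood cell list in wild-type replicate 1.

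Base composition also moved with genotype. Across 11492 genes with a transcript sequence, the log2 fold change had a Spearman correlation of -0.34 with GC content, given as a description since genes share their libraries. The median GC content was 43.0% among the genes that rose, 54.1% among those that fell and 50.2% among all. The 1150 genes lowest in GC had a median log2 fold change of 0.18 and held 25 of the rising genes and 1 falling gene. All 3 wild-type libraries were lower for these genes than all 3 cre libraries, wild-type replicate 1 by the most. A fit with an offset for GC content, added after the data were seen, called 32 rising and 15 falling genes and retained 39 of the 80 called genes it could test. Among those that still passed were Gbp2, Gbp3, Gbp7, Ccnd2, Prkar2b, Jchain, Gda, Lyz1, Csf1r, Il9r, Serpina3f, Serpina3g, Raph1, Fosb, Il21r, Il4ra, Serpinb1a, Cd69, Cd83, Dtx1, Ephx1 and H2-Eb1. Egr3, Gadd45b, Ppp1r15a, Slfn1, Cd36, Lgmn, P2ry10b, Ppp1cb, Selenot, Tmed5, Ube2d3, Trp53inp1, H3f3a, Fut8, Arhgap5 and Capza1 were among those that did not. Rgl1 and Traf5 could not be tested with the offset, for lack of a transcript sequence.

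**Figure D5:**
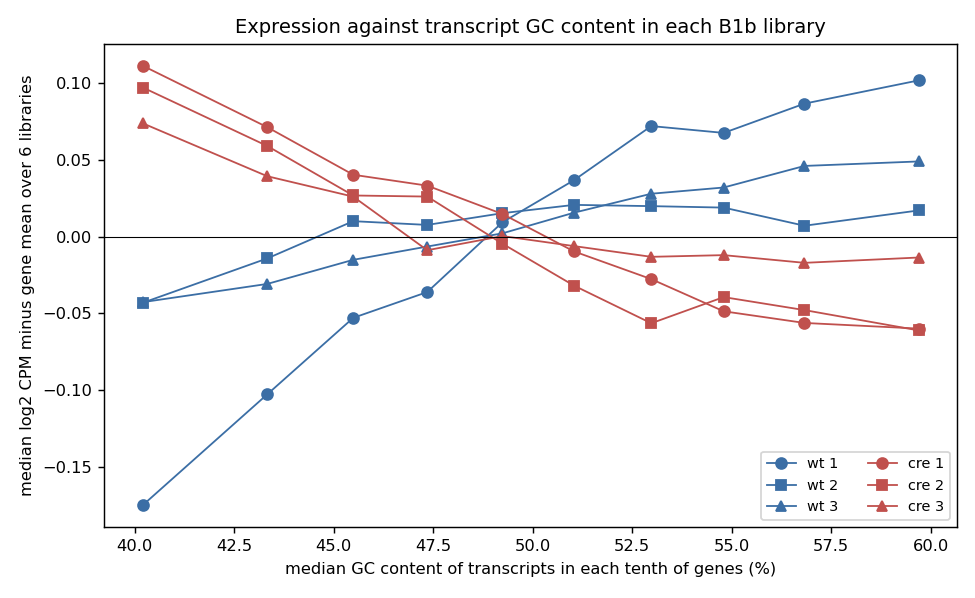
The horizontal axis is the median GC content of the transcripts in each of 10 equal groups of genes, and the vertical axis is the median log2 CPM of those genes in a library minus their mean over the 6 libraries. The red cre lines run downward and the blue wild-type lines upward, except that wild-type replicate 2 is nearly flat above 45.5% GC.

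The same genes were examined in the aortas of both genotypes. These are whole tissue, so a lack of change there does not tell whether a change belongs to B1b cells. Of the 83 genes, 79 were tested in aortas and 1 passed there, which is not reported here. The difference between B1b cells and aortas was tested as an interaction over all 16 libraries. Of 15091 genes 3 passed, or 0.0199% (edgeR quasi-likelihood), with 1678 at an unadjusted p under 0.05. For the B1b change itself, 0 of the 83 genes passed in that shared fit. A gene that did not pass the interaction is therefore not shown to change alike in both tissues. In aortas Rgl1 averaged 57.8 ± 5.36 CPM (SD, n = 5) for wild type against 71.7 ± 9.97 CPM (SD, n = 5) for cre, at 0.31 on the log2 scale. Its change in B1b cells was lower than that by 1.52 (difference -1.52, adjusted p = 0.0178). In aortas Raph1 averaged 131.3 ± 10.2 CPM against 95.3 ± 13.3 CPM, at -0.46, and its change in B1b cells was higher by 1.30 (adjusted p = 0.0178). The third gene that passed is not reported here.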

How the data were processed

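RNA was measured in 6 B1b libraries, with the aortas used for the test of the difference between tissues. Per the labels' protocols, cells low in B220 and CD5 and high in IgM were sorted from lavage fluid, and KAPA mRNA Hyperprep libraries were built from Direct-zol RNA. The submitters' processing notes list CASAVA 1.8.2, STAR 2.5.2b and mm10. How reads were counted, on which annotation and whether by strand, is not given in the sources used here. Raw read counts per RefSeq transcript, not normalized, make up the table deposited by the authors. Of 35745 transcripts, 35435 were named through RefSeq and 193 through GENCODE, and the transcript of highest total count was kept for each of 24445 named genes. Transcripts without a name held 0.240% to 0.594% of B1b counts, stayed in library sizes and tests, and gave 1 rising call.

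Counts were fitted with edgeR 4.0.16 in R 4.3.3 (TMM, filterByExpr, robust quasi-likelihood F test), with Benjamini-Hochberg adjustment over all genes tested and a threshold of 0.05. CPM of single genes use TMM-scaled library sizes, while CPM summed over lists or over haemoglobin genes use total counts. Fold changes are log2, cre minus wild type, with 95% intervals. The test of the difference between tissues was a genotype by tissue term over all 16 libraries. Replicates were numbered in sample order. Pairs of 1 genotype differed by more than counting noise (chi-square 5.47 to 9.83 for each degree of freedom), so no library was merged. Scripts were tested on simulated data. Alternatives were other size factors and filters, DESeq2 1.42.0, limma 3.58.1 (voom), another transcript, all libraries in 1 fit, each library left out, and a GC content offset.

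Every gene past the threshold with an official symbol could be named, with up to 3 members of smallest p per list. Values per library follow the 10 largest changes in each direction among called genes. These had to have a mean of at least 5 CPM and no overlap between the groups. Genes with values per library beyond these were chosen after their values were seen. Lists and members were chosen with earlier results of these data known. Some genes taken in by this rule are not reported here but remain in the counts.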

Additional observations from a re-analysis of the deposited data

Results flagged for a closer look

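The effect of genotype differed between B1b cells and aortas in 2 genes named here, by the test of the difference itself. For Raph1 the log2 fold change in B1b cells exceeded that in aortas by 1.30, and this passed in 15 of 20 settings (edgeR adjusted p up to 0.134). For Rgl1 the difference was -1.52, which passed in 12 of 20 settings (edgeR adjusted p up to 0.136). In both genes the effect in aortas alone did not pass (edgeR adjusted p = 0.217 for Raph1 and 0.351 for Rgl1).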

How the results depend on the processing

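The counts of 57 rising and 26 falling genes became 226 and 101 with no filter on low counts, 133 and 63 with DESeq2, and 32 and 15 with the GC content offset, which was chosen after seeing the data. With all 16 libraries in 1 fit 0 and 0 passed (edgeR, 862 genes at an unadjusted p under 0.05). Leaving out 1 library gave 21 to 80 rising and 9 to 36 falling genes. Other size factors, the stricter filter, voom and the transcript of lowest count stayed within 1.5 times of both counts. The 3 genes that differed between tissues became 173 with DESeq2 and 15 with voom, and 1 to 7 when 1 library was left out. Sign changes occurred in Tmed5 with the transcript of lowest count (-0.26), and otherwise in genes that did not pass. Leaving out 1 library moved Cd5 from -0.78 to 0.031, Col1a1 from -0.054 to 0.37, Cpa3 from -0.54 to 1.44, Kit from -0.092 to 1.21, Krt8 from -0.33 to 0.64 and Tsix from -0.020 to 0.28. Ptprc stood at -0.039 with the GC offset, and Krt8 at -0.49 without wild-type replicate 1 and cre replicate 3. Without wild-type replicate 1 and cre replicate 3 together, also chosen after seeing the data, 41 of the 83 genes passed. Over named genes and settings 2186 values kept direction and call, 417 lost the call and 71 gained it. No paired analysis was possible because the labels give no replicate numbers shared by the 2 genotypes. Genes of a few CPM, such as Thbs4, are limited by depth.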
